A study of Homo sapiens with 4 samples.

Results

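The genes described are 47 genes of G1/S progression and DNA replication, listed by their roles. All 47 had at least 1 probe set on the array annotated to that symbol alone, 98 probe sets in all out of 54675, and 30 genes had more than 1. Each gene was followed by its brightest probe set, and on that basis all 47 passed the filter on dim signal, among 12468 of 19775 genes that did. Expression had been profiled in HCT116, an established human colorectal carcinoma line, on 4 one-colour Affymetrix arrays. The groups were cells with hairpin #2 against KSR1, cells with hairpin #1 against KSR1, cells with the non-targeting hairpin shCTRL, and untransfected cells, with 1 array each. Per the labels, the hairpin vectors were introduced by lipofection and clones were selected with puromycin, while the untransfected cells had neither. KSR1 is a scaffold that brings RAF, MEK and ERK together. The design text calls the arrays single biological replicates, and the labels do not say whether an array stands for 1 clone or a pool. The comparison therefore asks how these transcripts differ between cells with and without a KSR1 hairpin, and between the hairpins.

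Passage from G1 into S phase is driven by cyclin D with CDK4 or CDK6 and by cyclin E with CDK2, which inactivate RB proteins and release E2F transcription factors. E2F then raises transcription of the genes that license origins, build the replication fork and supply nucleotides. ERK signalling is known to act at the top of this route, among others by raising cyclin D1, and TIMELESS, a fork protection factor, has been studied as a gene that depends on ERK in colon cancer cells. In bulk RNA of this kind, fewer cells in S phase and less of a transcript per cell cannot be told apart.

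The values are deposited intensities, and differences are given on the scale of log2(intensity + 16). Array medians lay between 50.7 and 52.0. The brightest KSR1 probe set read 171 with hairpin #2 and 141 with hairpin #1, against 211 in shCTRL and 209 in untransfected cells, and the other 3 KSR1 probe sets lay at 60.4 or below with no common direction. Actin signal, a sign of RNA quality, had a 3' to 5' ratio of 2.22 with hairpin #2, 2.01 with hairpin #1, 2.09 in shCTRL and 2.68 in untransfected cells; its part in the results was not tested. All 10 colorectal epithelial markers passed the filter, against 3 of 10 fibroblast markers and 0 of 8 measured leukocyte markers. Summed intensity over the fibroblast markers ranged from 619 to 698 across the arrays, and over the leukocyte markers from 210 to 238, with PTPRC, which encodes CD45, between 15.5 and 17.4. Summed intensity of the epithelial markers was 45430 with hairpin #2, 35231 with hairpin #1, 37770 in shCTRL and 37396 in untransfected cells.

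Most of the 47 genes spanned under 0.5 log2 units over the 4 arrays, a band no narrower at the median than that of genes at large. The span from the lowest to the highest of the 4 arrays was under 0.25 log2 units for 16 genes, between 0.25 and 0.5 for 21, and 0.5 or more for 10. The median span was 0.33 log2 units, beside 0.30 over all 12468 genes. How many of all genes fell in each of these ranges was not counted, so the counts have no baseline. CDK6 alone spanned more than 1 log2 unit, at 2.81, and CCNE1 had the next widest span at 0.65. With no replicate arrays, the disagreement between the 2 brightest probe sets of a gene gives a technical yardstick. Over 6025 genes with a second probe set past the filter, the difference between hairpin #2 and hairpin #1 disagreed between these probe sets with an SD of 0.24 log2 units, and the difference between shCTRL and untransfected cells did so with an SD of 0.24. Over the 29 members with such a second probe set, these SDs were 0.21 and 0.23.

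**Figure D1:**
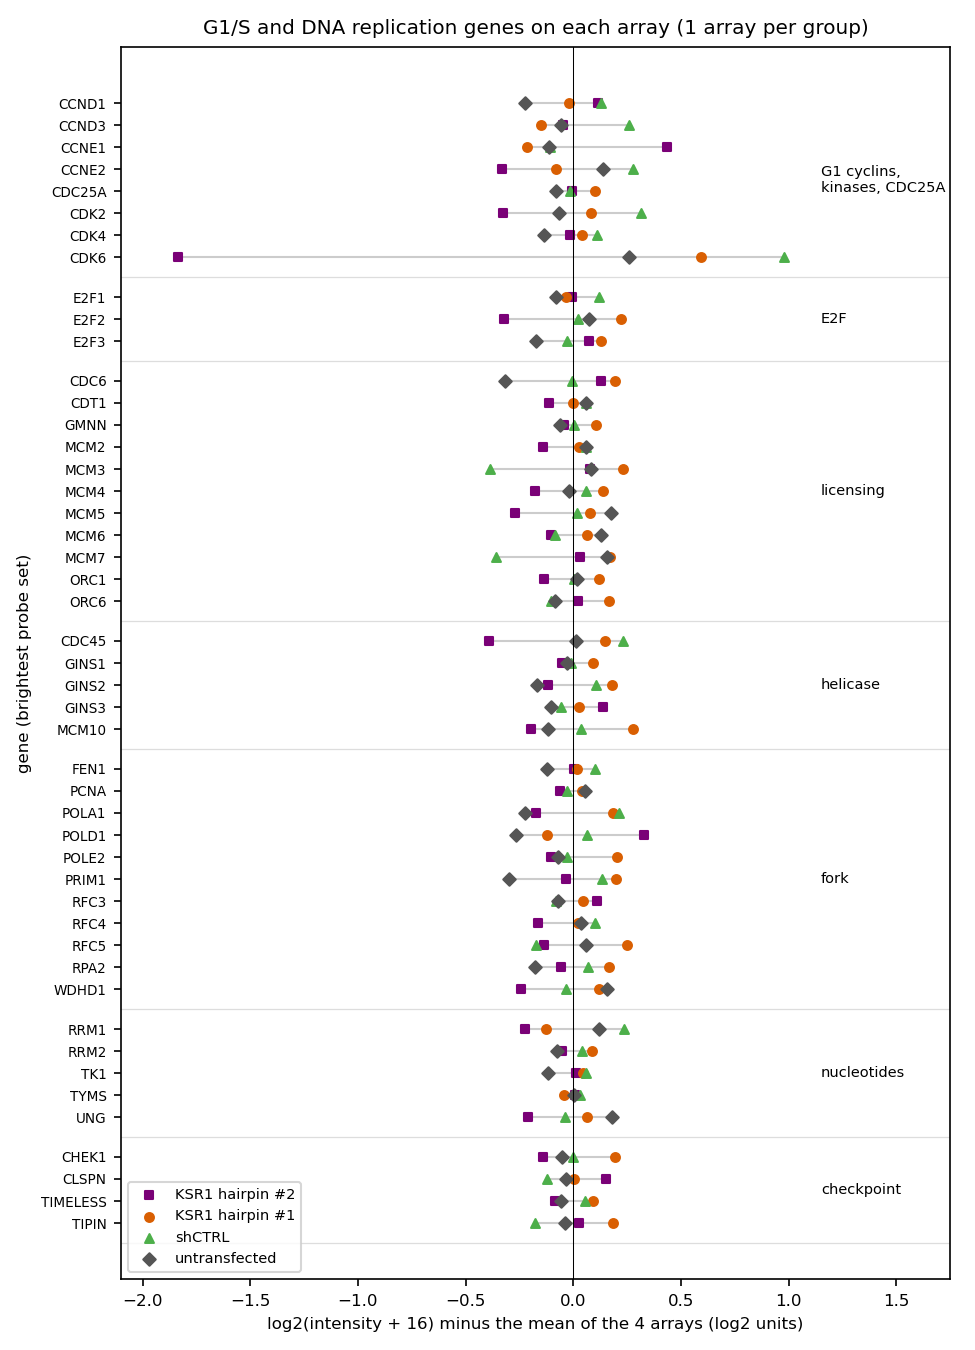
Each of the 47 genes on the 4 arrays, as log2(intensity + 16) minus the gene's mean over the arrays (log2 units, 1 point per array), ordered by role. CDK6 with hairpin #2 stands apart at the left, the shCTRL points of MCM3 and MCM7 lie below the others, and hairpin #2 lies left of hairpin #1 in 38 rows.

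Both hairpin arrays together did not part from both other arrays more often among these genes than among genes at large. In 8 members both hairpin arrays lay above both others (22.5% of all genes did), and in 5 members both lay below (18.4% of all genes). The 8 were CDC6, TIPIN, E2F3, ORC6, GINS3, CLSPN, RFC3 and CDC25A, and the 5 were CCNE2, RRM1, RFC4, MCM2 and CDT1. On a dimmer probe set past the filter, hairpin #2 did not lie above both others for CDC6, E2F3, CLSPN, RFC3 and CDC25A. Hairpin #1 likewise did not lie below both others on the dimmer probe set of CCNE2 and RRM1. GINS3 and CDT1 kept the pattern on their second probe set. The median difference of hairpin arrays minus others was 0.035 log2 units over the members and 0.017 over all genes. By limma, with Benjamini-Hochberg adjustment over all genes, 0 of 47 members and 0% of all genes passed, and the smallest adjusted p of a member was 0.668. At an unadjusted p under 0.05 there were 2 members, RRM1 and CCNE2, while 7.07% of all genes lay there. These p-values rest on the spread between different hairpins and between shCTRL and untransfected cells, not between cultures of 1 kind. An exact permutation of 2 arrays against 2 cannot give a two-sided p below 0.333.

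The difference between the hairpin arrays was shared by most of the list, and least by its G1 and E2F genes. Expression was lower with hairpin #2 than with hairpin #1 for 38 of 47 members, where 48.5% of all genes were. The median difference of hairpin #2 minus hairpin #1 was -0.16 log2 units over the members and 0.0069 over all genes. Among the 8 G1 cyclins, kinases and CDC25A, 5 were lower with hairpin #2, with a median of -0.081. Among the 3 E2F activators 2 were lower, with a median of -0.055. Of 90 member probe sets past the filter, 73 were lower with hairpin #2. Of the 29 genes with several such probe sets, 19 had all of them lower, 3 had all of them higher and 7 had both directions. The median step of a member was 0.17 log2 units in size. That was below the SD of 0.24 for the disagreement between probe sets given above, and above its median size of 0.12 over all genes. The 2 brightest probe sets had the same sign in 26 of the 29 members (70.1% of all genes). With 1 array per hairpin, the count describes a direction shared by many genes. Only 3 members were at least 0.5 log2 units (1.41-fold) lower with hairpin #2, namely CDK6, E2F2 and CDC45, with 3.06% of all genes past that size. CCNE1 was the 1 member at least 0.5 log2 units higher, with 4.62% of all genes.

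Placed among the 4 arrays, hairpin #2 gave the lowest value for 21 members and the highest for 5, while over all genes it was lowest for 25.2% and highest for 30.1%. Hairpin #1 gave the highest value for 21 members and the lowest for 3, against 23.4% and 21.8% of all genes. In 8 members hairpin #1 lay above both arrays without a KSR1 hairpin and hairpin #2 below both, and the reverse held for 1 member, CCNE1. How many of all genes showed these patterns was not counted, so the counts have no baseline here. Set against shCTRL, 34 members were lower with hairpin #2 (48.4% of all genes) and 18 with hairpin #1 (49.2%). Against untransfected cells, 24 were lower with hairpin #2 (45.4%) and 13 with hairpin #1 (46%). The median differences were -0.12 and 0.074 from shCTRL, and -0.0057 and 0.15 from untransfected cells, for hairpin #2 and hairpin #1 in that order. For hairpin #2 these medians depended on the processing, at -0.14 to -0.048 from shCTRL and -0.049 to 0.016 from untransfected cells over the alternatives. These comparisons share their control arrays. At the size of 0.5 log2 units, 4 members were below shCTRL with hairpin #2, namely CDK6, CDK2, CDC45 and CCNE2 (4.37% of all genes), and CCNE1 was above it (4.97%). Against untransfected cells, CDK6 was that far below with hairpin #2 (4.07% of all genes), while POLD1 and CCNE1 were above (6.37%). With hairpin #1, CDC6 was that far above untransfected cells (3.09%) and 0 members were that far below (2.98%).

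Mitotic genes, a list of 20 that includes cyclin B1 and PLK1, lay on the other side. With hairpin #2 15 of the 20 were higher than with hairpin #1 (51.3% of all genes), with a median of 0.062 log2 units. CCNB1, the cyclin of mitotic entry, read 4573 with hairpin #2, 3600 with hairpin #1, 2328 in shCTRL and 2718 in untransfected cells. PLK1, a mitotic kinase, read 1158, 831, 629 and 606 in the same order. Their differences between the hairpins, 0.34 and 0.47 log2 units, were well above the median of the list. UBE2C, a ubiquitin-conjugating enzyme of mitotic exit, lay the other way, at 1924 with hairpin #2, 2349 with hairpin #1, 2435 in shCTRL and 1701 in untransfected cells. HMMR, a spindle protein, did so too, at 3161, 3543, 2505 and 2275 in that order. Replication genes and mitotic genes thus had opposite median signs between the same pair of arrays. No test of that contrast is possible with 1 array each. Both medians were smaller in size than 0.24 log2 units, the SD of the disagreement between probe sets given above. That SD describes single genes and does not measure the spread of a median over many genes. Both hairpin arrays lay above both others in 15 of the 20 mitotic genes (22.5% of all genes), with a median pooled difference of 0.30 log2 units.

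**Figure D2:**
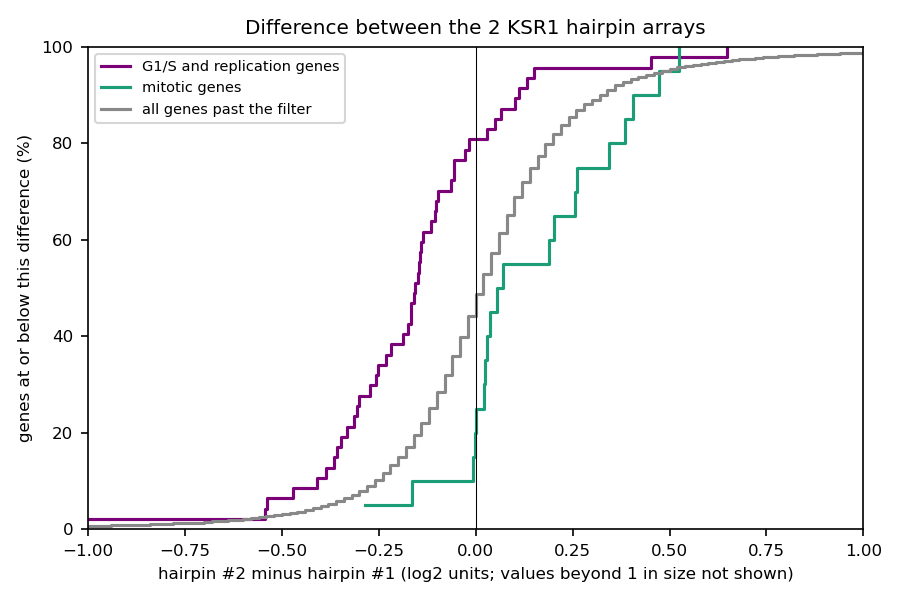
Cumulative share of genes (%) at or below a given difference of hairpin #2 minus hairpin #1 (log2 units), for the 47 G1/S and replication genes, 20 mitotic genes and all 12468 genes past the filter. The members' curve crosses 0 at 80.9% and that of all genes at 48.5%, while 5 of the 20 mitotic genes lie below 0.

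CDK6, a cyclin D partner kinase, was the member with the largest difference. Its brightest probe set read 198 with hairpin #2, against 1138 with hairpin #1, 1493 in shCTRL and 899 in untransfected cells. The hairpin #2 value lay far below the other 3 arrays, which themselves spread over 0.72 log2 units. Expression with hairpin #2 was 5.38-fold below hairpin #1 on the log2(intensity + 16) scale (-2.43 log2 units), 7.04-fold below shCTRL (-2.81) and 4.27-fold below untransfected cells (-2.09). Ordered from the lowest difference of hairpin #2 minus hairpin #1, CDK6 ranked 8 of 12468 genes. The following 2 probe sets by brightness gave -2.41 and -2.56 for hairpin #2 minus hairpin #1. The remaining 2 past the filter gave -1.42 and -0.34. Of the 2 dim ones, 1 read between 28.0 and 32.0 on every array and the other read 12.5 with hairpin #2 and 28.5 to 35.1 elsewhere. Hairpin #1 lay between the other arrays, at -0.39 from shCTRL and 0.33 from untransfected cells. The pooled difference of both hairpin arrays was therefore -1.24 log2 units with an SE of 0.84 (limma adjusted p = 0.704, n = 4 arrays), and it was -0.026 without hairpin #2.

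**Figure D3:**
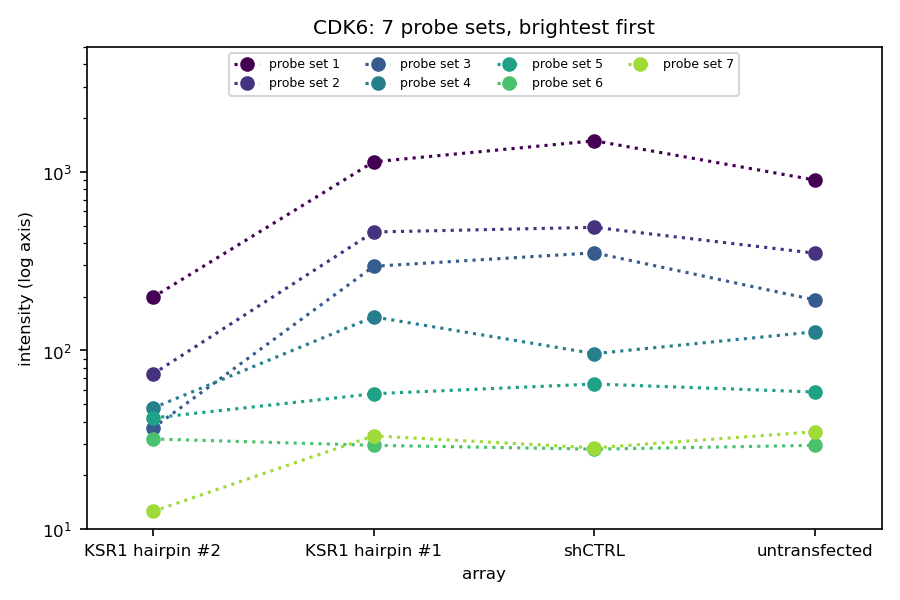
Intensity (log axis) of the 7 CDK6 probe sets on each array, joined by dotted lines only to mark the probe set. In 6 of 7 probe sets hairpin #2 is the lowest array, and the brightest reads 198 there and 899 to 1493 elsewhere.

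The other G1 cyclins and kinases spanned 0.65 log2 units or less over the 4 arrays. CDK4, the paralog of CDK6 with the same cyclin partners, read 2681 with hairpin #2, 2788 with hairpin #1, 2933 in shCTRL and 2468 in untransfected cells. CCND1, encoding cyclin D1, read 2209, 2013, 2236 and 1746 in the same order, so the lowest array was the untransfected one. Its second probe set read 1083 with hairpin #2, 723 with hairpin #1, 927 in shCTRL and 738 in untransfected cells. The pooled CCND1 difference was 0.093 (SE 0.15), and by neither probe set did both hairpin arrays part from both others. CCND3, encoding cyclin D3, read 502 and 466 with hairpins #2 and #1, against 626 in shCTRL and 499 in untransfected cells, with a pooled difference of -0.20 (SE 0.14) that was -0.043 without shCTRL.

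CDK2, the partner of cyclin E, read 1036 with hairpin #2, 1381 with hairpin #1, 1628 in shCTRL and 1244 in untransfected cells, the same order of arrays as CDK6 at a smaller size (hairpin #2 minus shCTRL -0.64 log2 units). Its second probe set gave 346, 521, 507 and 349, so the untransfected array was as low as hairpin #2 there. The 2 cyclin E genes lay in opposite directions. CCNE1 read 1181 with hairpin #2, and 748 with hairpin #1, 806 in shCTRL and 803 in untransfected cells, a single high array. Hairpin #2 minus shCTRL was 0.54 log2 units, and hairpin #1 minus shCTRL was -0.11. CCNE2 read 683 with hairpin #2 and 816 with hairpin #1, against 1052 in shCTRL and 953 in untransfected cells. Both hairpin arrays lay below both others, and the pooled difference was -0.42 (SE 0.13, limma adjusted p = 0.668, n = 4 arrays). The dimmer CCNE2 probe set gave -0.14, with 140 and 191 with hairpins #2 and #1 against 225 in shCTRL and 147 in untransfected cells. All 8 genes of this group were higher in shCTRL than in untransfected cells (54% of all genes), with a median of 0.28 log2 units. CDK6 led them at 0.72, the 1 member at least 0.5 log2 units higher in shCTRL (3.38% of all genes).

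The E2F activators differed little or by single arrays. E2F1 read 318, 311, 348 and 301 with hairpin #2, hairpin #1, in shCTRL and in untransfected cells. E2F2 read 321 with hairpin #2, 475 with hairpin #1, 412 in shCTRL and 428 in untransfected cells. Hairpin #2 minus hairpin #1 was -0.54 log2 units on the brightest probe set and -0.12 on the second. E2F3 read 903 and 939 with hairpins #2 and #1, against 838 in shCTRL and 759 in untransfected cells, with a pooled difference of 0.20 (SE 0.10).

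Origin licensing genes load the MCM2 to MCM7 helicase onto DNA in G1. ORC and CDC6 mark the origin, CDT1 brings the helicase, and GMNN, geminin, blocks CDT1 once S phase has begun. All 11 genes of this group were lower with hairpin #2 than with hairpin #1, by 0.064 log2 units for CDC6 at the least and 0.35 for MCM5 at the most. Their pooled differences lay between -0.19 for MCM5 and 0.32 for CDC6. CDC6 read 986 with hairpin #2 and 1031 with hairpin #1, against 894 in shCTRL and 719 in untransfected cells, and the untransfected array was the lowest of the 4. The pooled difference of CDC6 was 0.32 (SE 0.14, limma adjusted p = 0.668, n = 4 arrays), the highest of the list, and its second probe set gave 0.14. Without the untransfected array CDC6 was at 0.17, below MCM3 at 0.54. MCM5 read 1411, 1799, 1727 and 1924, and MCM2 read 3291, 3696, 3779 and 3786, with hairpin #2, hairpin #1, in shCTRL and in untransfected cells.

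MCM3 and MCM7, subunits of the helicase ring, stood apart from the other 4 by their level in shCTRL. MCM3 read 1659 with hairpin #2 and 1851 with hairpin #1, against 1198 in shCTRL and 1665 in untransfected cells. MCM7 read 2700 and 2968 with hairpins #2 and #1, against 2054 in shCTRL and 2942 in untransfected cells. In both genes shCTRL was the single low array, and the hairpin arrays lay close to untransfected cells. The shCTRL minus untransfected difference was -0.47 for MCM3 and -0.51 for MCM7, where 2.37% of all genes were lower by 0.5 log2 units or more, and the second MCM7 probe set gave -0.49. The other 4 subunits gave 0.081 for MCM4, -0.0027 for MCM2, -0.15 for MCM5 and -0.21 for MCM6. Relative to shCTRL alone, MCM3 was 0.46 log2 units higher with hairpin #2 and 0.62 with hairpin #1, and MCM7 was 0.39 and 0.53 higher. These were the 2 members at least 0.5 log2 units above shCTRL with hairpin #1 (1.68% of all genes), and 0 were as far below (2.78%). Set against untransfected cells, the MCM3 difference was -0.0057 for hairpin #2 and 0.15 for hairpin #1, and that of MCM7 was -0.12 and 0.013.

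**Figure D4:**
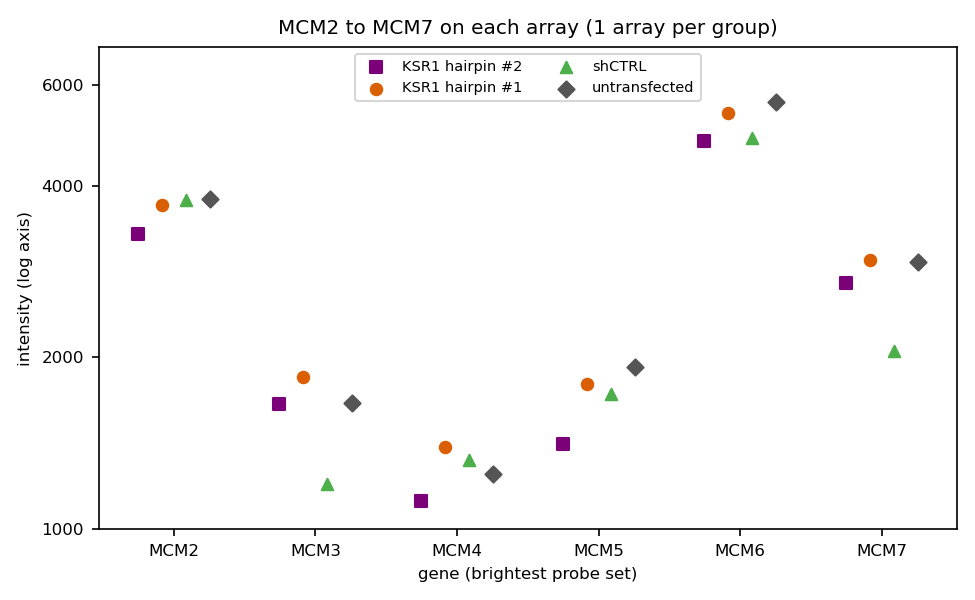
Intensity (log axis) of the brightest probe set of MCM2 to MCM7 on each array, 1 point per array. shCTRL is the lowest array for MCM3 (1198) and MCM7 (2054), and hairpin #2 lies below hairpin #1 in all 6 genes.

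Promoters are shown for 4 licensing genes that hold E2F letters, the helicase pair that was low in shCTRL, MCM6 and the origin factor CDC6. They cover 250 bases before to 50 after a start of the gene in RefSeq, build GRCh38.p14, and are written along the gene's strand. MCM7 has further RefSeq starts whose promoters held no word, and only its promoter with words is shown. Capitals mark any of 5 E2F-type words, TTTGGCGC, TTTCCCGC, TTTGCCGC, TTTCGCGC and TTTGGCGG, on either strand, with overlapping words run together.
MCM3 promoter, chr6:52284693-52284992, minus strand: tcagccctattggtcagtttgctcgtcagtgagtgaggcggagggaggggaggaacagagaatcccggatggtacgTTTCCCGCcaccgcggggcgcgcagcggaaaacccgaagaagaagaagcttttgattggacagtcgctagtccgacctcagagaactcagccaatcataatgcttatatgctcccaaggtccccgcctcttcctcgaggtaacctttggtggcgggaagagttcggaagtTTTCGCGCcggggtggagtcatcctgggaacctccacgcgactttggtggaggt
MCM7 promoter, chr7:100101348-100101647, minus strand: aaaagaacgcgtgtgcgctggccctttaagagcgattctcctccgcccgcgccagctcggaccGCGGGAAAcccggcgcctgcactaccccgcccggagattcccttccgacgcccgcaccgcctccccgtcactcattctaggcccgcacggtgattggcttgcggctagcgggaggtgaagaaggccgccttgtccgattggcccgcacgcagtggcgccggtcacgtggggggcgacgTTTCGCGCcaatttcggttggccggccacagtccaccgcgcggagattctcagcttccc
MCM6 promoter, chr2:135876394-135876693, minus strand: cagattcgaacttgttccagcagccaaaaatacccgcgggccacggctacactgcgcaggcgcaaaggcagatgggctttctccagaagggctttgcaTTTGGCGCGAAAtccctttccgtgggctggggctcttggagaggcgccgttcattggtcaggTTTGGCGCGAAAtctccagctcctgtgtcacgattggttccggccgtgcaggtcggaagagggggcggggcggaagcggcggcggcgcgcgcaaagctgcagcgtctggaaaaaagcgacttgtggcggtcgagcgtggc
CDC6 promoter, chr17:40287629-40287928, plus strand: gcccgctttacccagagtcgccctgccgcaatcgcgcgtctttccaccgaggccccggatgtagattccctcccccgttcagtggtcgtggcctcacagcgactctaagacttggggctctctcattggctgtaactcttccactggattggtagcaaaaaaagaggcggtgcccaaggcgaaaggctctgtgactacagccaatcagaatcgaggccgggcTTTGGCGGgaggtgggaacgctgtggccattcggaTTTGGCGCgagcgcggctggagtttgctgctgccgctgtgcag
In MCM3 and MCM7 a word began 4 and 9 bases before the start. In CDC6 words began 28 bases before and 7 bases after it. MCM6 held the same 12 letters at 2 places, each a pair of words that overlap on opposite strands. Of 41 members with a promoter in the table, 24 held at least 1 word (58.5%), against 1290 of 27305 genes in all (4.72%). The 27305 include genes that were not on the array or did not pass the filter, whereas all members passed it. A member with several promoters was counted if any of them held a word. Members with and without a word had similar medians between the hairpins. Whether E2F sites have a part in that difference was not tested. Members with a word had a median of -0.15 for hairpin #2 minus hairpin #1, and 19 of 24 were lower. The 17 members with a promoter and no word had a median of -0.14, and 14 of them were lower. Among 763 other genes past the filter with a word, the median was -0.016 and 52.3% were lower, and among 9296 without one it was 0.0073 and 48.5%. A match is letters in a window and does not show binding.

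Helicase activation, in which CDC45 and the GINS complex join the MCM ring with the help of MCM10, had 4 of 5 genes lower with hairpin #2 than with hairpin #1, at a median of -0.30 log2 units. CDC45 read 366 with hairpin #2, 538 with hairpin #1, 572 in shCTRL and 490 in untransfected cells. Hairpin #2 was the single low array, 0.62 log2 units below shCTRL. MCM10 read 758 with hairpin #2, 1058 with hairpin #1, 894 in shCTRL and 801 in untransfected cells. GINS3 was the exception of the group, at 348 with hairpin #2, 321 with hairpin #1, 302 in shCTRL and 292 in untransfected cells.

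Fork genes comprised 11 members. They encode polymerase and primase subunits, the sliding clamp PCNA with its RFC loaders, the flap nuclease FEN1, RPA2, which binds single-stranded DNA, and WDHD1, which ties polymerase alpha to the helicase. Of these, 9 were lower with hairpin #2 than with hairpin #1, and the exceptions were POLD1 and RFC3. For RFC3 the difference was 0.066 log2 units on the brightest probe set and 0.045 on the second, while the third gave -0.73. PCNA read 7332, 7868, 7487 and 7936 with hairpin #2, hairpin #1, in shCTRL and in untransfected cells, a span of 0.11 log2 units. POLD1, the catalytic subunit of polymerase delta, read 760 with hairpin #2, 551 with hairpin #1, 630 in shCTRL and 497 in untransfected cells. Its difference from untransfected cells was 0.60 with hairpin #2 and 0.14 with hairpin #1. POLA1, the catalytic subunit of polymerase alpha, read 540 with hairpin #2 and 696 with hairpin #1, against 710 in shCTRL and 521 in untransfected cells, so that 1 array of each side was high and 1 was low. PRIM1, the primase partner of POLA1, was also lowest in untransfected cells, at 1711, 2010, 1922 and 1423 in the same order.

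Nucleotide supply genes, grouped with UNG, which removes uracil, made up 5 members. The group had a median span over the arrays of 0.18 log2 units, beside 0.33 over the whole list. UNG spanned 0.39, at 1416 with hairpin #2, 1712 with hairpin #1, 1597 in shCTRL and 1861 in untransfected cells. TYMS, thymidylate synthase, read 7130, 6881, 7230 and 7108 with hairpin #2, hairpin #1, in shCTRL and in untransfected cells, a span of 0.071 log2 units. RRM2, the small subunit of ribonucleotide reductase, spanned 0.16 and thymidine kinase TK1 spanned 0.18. RRM1, the large subunit, read 3112 with hairpin #2 and 3332 with hairpin #1, against 4283 in shCTRL and 3952 in untransfected cells. The groups did not overlap, and the pooled difference was -0.35 (SE 0.10, limma adjusted p = 0.668, n = 4 arrays), in the direction of its dimmer probe set at -0.17. On that probe set the hairpin #1 value of 805 lay above the 778 of untransfected cells.

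TIMELESS and TIPIN form the complex that steadies a paused fork, and CLSPN and CHEK1 carry the checkpoint signal from ATR. TIMELESS read 890 with hairpin #2 and 1006 with hairpin #1, against 980 in shCTRL and 906 in untransfected cells. The groups overlapped, and the pooled difference was 0.0060 (SE 0.11, limma adjusted p = 0.992, n = 4 arrays), with a sign that turned to -0.081 without hairpin #1, -0.050 without the untransfected array and -0.036 after quantile normalization. Its dim second probe set read 62.7 and 65.8 with hairpins #2 and #1, against 51.7 in shCTRL and 56.5 in untransfected cells. TIPIN read 681 and 762 with hairpins #2 and #1, against 589 in shCTRL and 651 in untransfected cells. Both hairpin arrays were above both others, by a pooled difference of 0.21 (SE 0.11). CHEK1 read 713, 903, 788 and 759 with hairpin #2, hairpin #1, in shCTRL and in untransfected cells. CLSPN was dim on all arrays, between 60.4 and 76.6.

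Other genes of the same route, listed by role, were examined beside the members. Of 84 such genes past the filter in 6 lists, limma called 0 after adjustment, and 3, namely CDKN1C, TFDP2 and MCM9, lay at an unadjusted p under 0.05 (3.57%, beside 7.07% of all genes). Of 26 further fork, polymerase and chromatin assembly genes, 21 were lower with hairpin #2 than with hairpin #1, with a median of -0.17 log2 units. Of 14 checkpoint and S-phase repair genes 11 were lower, and of 11 nucleotide supply genes 9. Of 15 licensing and firing genes 10 were lower, and of 10 further E2F, DP and cyclin genes 6. Of 8 CDK inhibitors and RB family genes 6 were lower, with a median of -0.17 log2 units. Over all genes, 48.5% were lower. UHRF1, which recruits DNA methylation to new strands, read 1828 with hairpin #2, 2532 with hairpin #1, 1813 in shCTRL and 1895 in untransfected cells, and POLE3, a polymerase epsilon subunit, read 1004, 1161, 934 and 878 in the same order. EXO1, a nuclease, read 586, 725, 729 and 776, and RAD51AP1, a recombination factor, read 1224, 1645, 1441 and 1831. GART, a purine synthesis enzyme, read 1116, 1933, 1639 and 1748. In these 5 genes hairpin #2 stood below hairpin #1. On the other side, hairpin #2 minus hairpin #1 was 0.23 log2 units for TOP2A, a topoisomerase, 0.32 for SAMHD1, which breaks down deoxynucleotides, 0.35 for CAD, a pyrimidine synthesis enzyme, and 0.13 for the checkpoint kinase CHEK2.

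Among regulators upstream, TFDP2, a dimer partner of E2F, read 382 with hairpin #2 and 535 with hairpin #1, against 692 in shCTRL and 666 in untransfected cells (pooled difference -0.57, SE 0.18). E2F8, a repressor of the family, read 577, 756, 725 and 1058 with hairpin #2, hairpin #1, in shCTRL and in untransfected cells. CDKN1C, the CDK inhibitor p57, read 469 and 435 with hairpins #2 and #1, against 647 in shCTRL and 589 in untransfected cells (pooled difference -0.44, SE 0.11). RBL1, an RB relative, read 166, 205, 162 and 147 with hairpin #2, hairpin #1, in shCTRL and in untransfected cells. Of the 8 CDK inhibitors and RB proteins past the filter, 1 lay above both others with both hairpins (22.5% of all genes did) and 2 below (18.4%). MCM9, a helicase of recombination repair, read 218 and 216 with hairpins #2 and #1, against 159 in shCTRL and 160 in untransfected cells (pooled difference 0.41, SE 0.090), and DBF4, the activator of the CDC7 kinase, read 2089 and 1941 against 1495 and 1824. CTPS1, a CTP synthase, read 824 and 827 with hairpins #2 and #1, against 747 in shCTRL and 518 in untransfected cells.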

How the data were processed

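The authors deposited linear intensity, from 4.72 to 26251, with each probe set summarised to a single value on an array. Per the labels, biotinylated cRNA was prepared with an Affymetrix 1-cycle kit. How background, summary and normalization were handled is not stated there or in the file. Array medians were nearly equal, so no further scaling was applied. The 95th percentile of intensity was 1421 with hairpin #2, 1441 with hairpin #1, 1395 in shCTRL and 1405 in untransfected cells. Members were brighter than most genes, with a median log2 value of 10.4 beside 8.46 over all genes past the filter. The part of these bright-end differences in the results was not tested. On arrays, their number limits the precision.

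Probe sets were named from GEO's platform annotation, of which 41097 had 1 symbol, 1801 several and 11777 none, and only those with 1 symbol were used. Of these, 41043 matched a gene of the RefSeq table (GRCh38.p14) by identifier. Intensities were converted to log2(intensity + 16). A gene took its brightest probe set by mean over the 4 arrays and passed the filter when its mean reached 6.08, the median log2 value over all probe sets. Single arrays were compared by size, at 0.5 log2 units, with no p-value. limma 3.58.1 (R 4.3.3, lmFit and eBayes) compared both KSR1 hairpin arrays with both others over all 12468 genes. Tested on simulated data of these means and spreads, it called 91 of 100 genes changed by 1 log2 unit. It called 100 of 100 changed by 3, and 13 unchanged genes. The simulated noise was independent for each array, with no systematic difference between the hairpins or between the controls. These shares are therefore not the power on the real arrays.

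The members and gene lists were chosen with earlier results of these data known. Genes given in full were TIMELESS, CCND1, the 6 highest and 6 lowest pooled differences, the 4 largest differences between shCTRL and untransfected cells and between the hairpins, any member 0.5 log2 units from shCTRL with both hairpins, and up to 2 per context list. Other members, UBE2C, HMMR and the further genes of the context lists were picked to show the rest of their group, after their values were seen. Alternatives covered the pseudocount (1 and 64), the filter, the probe set rule, quantile normalization, median centring and each left-out array.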

Additional observations from a re-analysis of the deposited data

Results flagged for a closer look

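Within the list, 2 genes had the hairpin arrays on opposite sides of both arrays without a KSR1 hairpin, at least 0.5 log2 units apart. The difference of hairpin #2 minus hairpin #1 was 0.65 for CCNE1 and -0.54 for E2F2. With 1 array per hairpin, neither difference was tested. The share of all genes with arrays placed this way was not counted. By the size of 0.5 log2 units alone, hairpin #2 was lower than hairpin #1 in 3.06% of all genes and higher in 4.62%. The second CCNE1 probe set was dim, between 28.4 and 34.0 on the 4 arrays, and gave -0.082, and the second E2F2 probe set gave -0.12.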

How the results depend on the processing

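limma called 0 members under all 8 changes of pseudocount, filter, probe set rule or normalization. The medians over members were small, have no replicate spread of their own, and several moved by over 1.5 times. After quantile normalization the pooled median was 0.0014 (0.035 as reported), that of hairpin #1 minus shCTRL 0.043 (0.074), of hairpin #1 minus untransfected cells 0.088 (0.15) and of hairpin #2 minus untransfected cells -0.049 (-0.0057). The last was also -0.015 with the filter at the 75th percentile, -0.015 with the mean over probe sets, and 0.016 after median centring, where its sign turned and the pooled median was 0.057. That of hairpin #2 minus shCTRL (-0.12) was -0.075 with the mean over probe sets and -0.048 where probe sets without the suffix _s_at or _x_at were preferred, a setting that put shCTRL minus untransfected cells at 0.024 in place of 0.064. The cause was not tested. The count of members lower with hairpin #2 than with hairpin #1, an alternative set chosen after seeing the data, stayed between 37 and 40, with medians between -0.16 and -0.15 and 48.0% to 51.2% of all genes lower. Mitotic genes higher with hairpin #2 than with hairpin #1 were 12 of 20 with the mean over probe sets and 17 of 20 after quantile normalization. Counts of members at least 0.5 log2 units apart were small and moved. For hairpin #1 against untransfected cells the count was 0 with a pseudocount of 64, with the mean over probe sets or after quantile normalization, and 2 after median centring, in place of 1. For hairpin #2 against hairpin #1 it was 2 with a pseudocount of 64 and 2 with the mean over probe sets, in place of 4. With the mean over probe sets it was 3 for hairpin #2 against shCTRL, in place of 5, and 1 for shCTRL against untransfected cells, in place of 2. For hairpin #1 against shCTRL it was 1 after quantile normalization and 3 with the preference for probe sets without those suffixes, in place of 2. For hairpin #2 against untransfected cells it was 2 with the mean over probe sets and 4 after quantile normalization, in place of 3. At a size of 1 log2 unit the counts were 1 for hairpin #2 against each other array, CDK6 in each case, and 0 for hairpin #1 against shCTRL, for hairpin #1 against untransfected cells and for shCTRL against untransfected cells.

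Single arrays decided several values. With 1 array left out, members with all hairpin arrays above the others numbered 10 to 24, members below 8 to 21, and the median difference -0.051 to 0.093, partly because fewer arrays are easier to part. For members whose sign turned, the differences without 1 array ran from -0.081 to 0.093 for TIMELESS, -0.084 to 0.27 for CCND1, -0.10 to 0.54 for CCNE1, -0.022 to 0.43 for POLD1, -0.51 to 0.024 for CDC45, -0.055 to 0.46 for MCM7, -0.21 to 0.23 for POLA1 and -0.37 to 0.17 for E2F2. CCNE1, POLD1, CDC45 and E2F2 turned without hairpin #2 (-0.10, -0.022, 0.024 and 0.17), MCM7 without shCTRL (-0.055), TIMELESS, POLA1 and CCND1 without the untransfected array (-0.050, -0.21 and -0.084), and TIMELESS and POLA1 also without hairpin #1 (-0.081 and -0.17). Among those that kept their sign, CDK6 and CDK2 were at -0.026 and -0.043 without hairpin #2, CCND3 and MCM3 at -0.043 and 0.073 without shCTRL, and CDC6 at 0.17 without the untransfected array. After quantile normalization TIMELESS was at -0.036 and POLA1 at -0.040, and the cause was not tested. No paired analysis was possible because each group had 1 array.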
